A study of Mus musculus with 6 samples.

Results

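The endoplasmic reticulum (ER) chaperones, ER-associated degradation genes and unfolded protein response genes were examined in fibroblasts of orthotopic lung tumours in mice. The set holds 35 named genes, found by symbol in the deposited tables of 55298 gene rows. They fill 36 rows, because Ddit3 is listed under 2 gene identifiers. RNA-seq covered 3 libraries of MHCII+ cancer-associated fibroblasts (apCAFs 1, 2 and 3) and 3 libraries of MHCII- cancer-associated fibroblasts (nonapCAFs 4, 5 and 6). The name apCAFs stands for antigen-presenting cancer-associated fibroblasts, and the comparison asks how these cells differ from fibroblasts of the same tumours without surface MHC class II. Both groups came from wt C57BL/6 mice over 8 weeks of age. The shared gate took cells of high forward scatter with PDPL (as the labels spell it) and PDGFRa on their surface and without mCherry, EPCAM, CD31 or CD45, and only MHCII separated the groups. Cells of both groups were isolated at the same time in 3 independent experiments, so the libraries come in pairs, but the labels do not say which belong together. Several tumours went into each sort, so p-values measure the spread between these pooled libraries and not between animals. Values are normalized counts made by the authors, shown per library or as mean ± SD over n = 3 libraries; depth is unknown. In bulk libraries, fewer cells of a type and less RNA per cell cannot be told apart. Libraries within a group were not equally alike: over the 17829 genes with a mean of 100 or more, the SD of the log2 ratio was 0.238 between apCAFs 1 and 2 and 0.246 between nonapCAFs 4 and 5; all other pairs of the same group lay between 0.479 and 0.708.

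Proteins that enter the secretory pathway are threaded into the ER through the translocon and folded there by HSP70 and HSP90 chaperones, by the lectin chaperones calnexin and calreticulin, and by protein disulfide isomerases. Collagen needs further dedicated factors, and fibroblasts are among the most active collagen secretors in the lung. When unfolded protein builds up, the membrane sensors IRE1 (gene Ern1), PERK (Eif2ak3) and ATF6 set off the unfolded protein response. IRE1 splices Xbp1 mRNA into the form that encodes an active transcription factor, PERK phosphorylates eIF2-alpha and so raises ATF4 and CHOP (Ddit3) protein, and ATF6 is cut to release its own factor. Gene-level counts do not separate spliced from unspliced Xbp1 and do not show protein activation.

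A shared promoter sequence marks part of the set. ATF6 and XBP1 act on many ER genes through the ER stress response element (ERSE), in which a CCAAT part that binds the factor NF-Y stands 9 bases from a CCACG part. RefSeq promoter windows (GRCm38.p6, 250 bases before to 50 after the start site) were matched for 30 of the 35 genes, all except Atf6, Derl1, Fkbp10, Hyou1 and Manf. The letters CCAAT, 9 bases of any kind and CCACG, searched on both strands, occurred in 9 of these 30 windows (30.0%), against 0.119% of all 32851 windows. The set was listed for ER folding and its stress response, where this element acts, so the contrast is not independent of that choice. The 10 matches are shown because these letters occurred in more member windows than any other motif searched, each with 20 bases on either side, read in the direction of the motif and with its fixed letters in capitals. Hsp90b1 holds 2 matches that do not overlap.
Hspa5, chr2:34772005-34772063, plus strand: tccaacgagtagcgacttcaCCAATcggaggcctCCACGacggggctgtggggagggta
Hsp90b1, chr10:86705618-86705676, minus strand: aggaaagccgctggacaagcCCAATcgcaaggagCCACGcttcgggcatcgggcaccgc
Hsp90b1, chr10:86705513-86705571, plus strand: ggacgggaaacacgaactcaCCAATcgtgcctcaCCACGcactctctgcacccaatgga
Dnajc3, chr14:118937807-118937865, plus strand: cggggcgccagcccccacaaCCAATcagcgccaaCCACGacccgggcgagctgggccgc
Calr, chr8:84847055-84847113, plus strand: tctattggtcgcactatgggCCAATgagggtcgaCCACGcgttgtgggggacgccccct
Canx, chr11:50325780-50325838, minus strand: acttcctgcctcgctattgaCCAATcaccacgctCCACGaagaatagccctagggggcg
Pdia6, chr12:17266471-17266529, plus strand: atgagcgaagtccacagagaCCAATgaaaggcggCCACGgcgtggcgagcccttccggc
Creld2, chr15:88819500-88819558, minus strand: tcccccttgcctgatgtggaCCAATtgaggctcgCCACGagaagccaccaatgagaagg
Syvn1, chr19:6046512-6046570, plus strand: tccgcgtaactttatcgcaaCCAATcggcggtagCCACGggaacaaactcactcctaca
Derl3, chr10:75893222-75893280, minus strand: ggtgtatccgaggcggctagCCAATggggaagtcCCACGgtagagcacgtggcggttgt

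The shorter variant ERSE-II, searched as ATTGG, any base and CCACG, shares the CCACG part and, read on the other strand, the CCAAT part. It occurred in Herpud1 and Dnajb11 (2 of 30 windows, against 0.0365% of all). The C/EBP-ATF response element, through which ATF4 acts, was searched as TTGCATCA or TTACATCA. It occurred in Chac1, Trib3 and Herpud1 (3 of 30 windows, against 1.99% of all). Neither TGACGTGG, the core of the XBP1 element, nor the cyclic AMP response element TGACGTCA, with which it shares its first letters, occurred in a member window (against 0.676% and 1.79% of all). A match describes letters only, and its absence says nothing of a factor. The Herpud1 matches are shown because this degradation gene holds letters of both branches, and Chac1 because it is the other gene with the ATF4 letters upstream of its start.
Herpud1 ERSE-II, chr8:94386357-94386407, plus strand: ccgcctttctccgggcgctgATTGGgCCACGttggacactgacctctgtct
Herpud1 C/EBP-ATF element, chr8:94386297-94386344, plus strand: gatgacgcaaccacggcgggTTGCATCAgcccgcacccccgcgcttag
Chac1 C/EBP-ATF element, chr2:119351029-119351076, plus strand: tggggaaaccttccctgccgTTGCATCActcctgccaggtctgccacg

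The ER folding machinery was abundant in both groups. Hspa5, Hsp90b1, Hyou1, Canx and Pdia6 overlapped between the groups, while Calr, Pdia3, P4hb and Serpinh1 were higher in every apCAFs library than in any nonapCAFs library. None of the 35 genes passed in limma at an adjusted p of 0.05 over all 36443 tested genes, of which 4.4% passed (3.91% higher and 0.486% lower in apCAFs). Among the 17829 abundant genes, those with a mean of 100 or more, 5.94% passed (5.87% higher and 0.0673% lower). Without adjustment, 11 of the 35 genes had p under 0.05 in limma, 9 higher and 2 lower in apCAFs. The share was 19.3% of all tested genes (13.1% higher and 6.19% lower) and 25% of the abundant genes (17.6% higher and 7.4% lower). The median log2 fold change of the 35 genes was 0.22, beside -0.04 for all tested genes and -0.05 for the abundant genes. The 95% interval of the log2 fold change, not adjusted for the number of genes, lay wholly between -1 and 1 for 27 of 35 genes, so a difference as large as 2-fold lay outside it. This held for 35.1% of all tested genes and for 67.1% of the abundant genes. In the authors' deposited table, 10 of the 35 were higher and 2 lower at a DESeq2 adjusted p of 0.05, against 20.6% and 9.77%, or 30.3% in either direction, of the genes it lists with an adjusted p. Fold changes from limma use log2(value + 1).

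**Figure D1:**
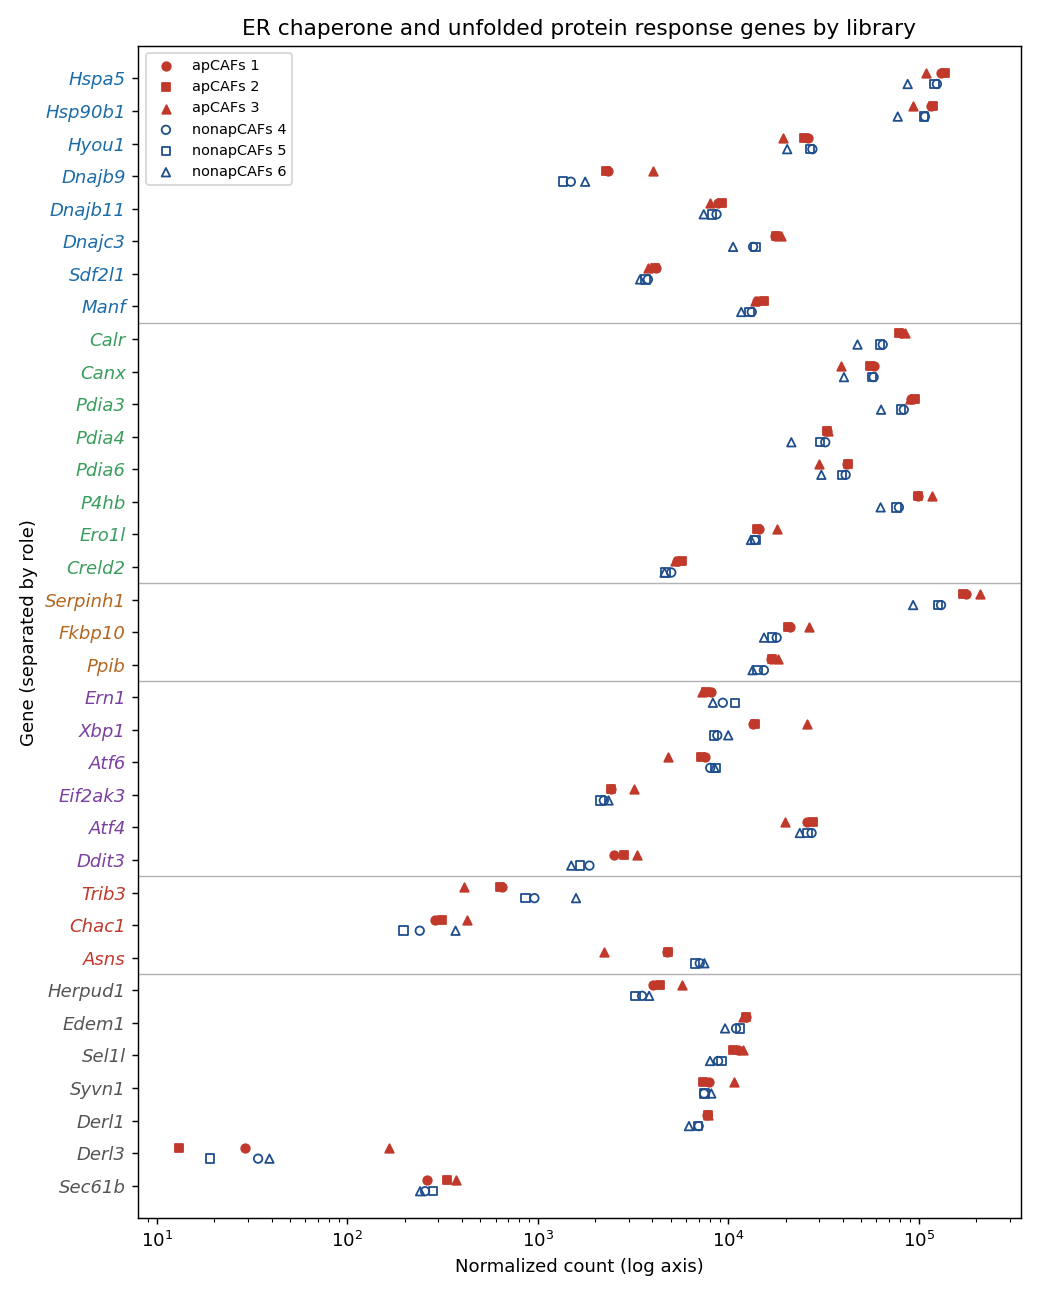
Normalized count of each gene in each library (log axis), with apCAFs as filled symbols just above nonapCAFs as open symbols on each gene's line, and lines separating the roles. For most chaperones the symbols of both groups lie close together, and Xbp1, Ddit3, Trib3 and Asns lie apart, with Xbp1 highest and Asns lowest in apCAFs 3.

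Ranked by level per kilobase of exon (GENCODE M21), the same genes stood at the top of both groups. The collagen chaperone gene Serpinh1 led with 76127 normalized counts per kilobase in apCAFs and 47853 in nonapCAFs. P4hb, Hspa5, Pdia3, Calr and Hsp90b1 followed, between 27082 and 36778 per kilobase in apCAFs and between 20255 and 26282 in nonapCAFs. Derl3 was lowest in both groups, at 34.8 per kilobase in apCAFs and 15.4 in nonapCAFs.

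Of the HSP70 and HSP90 system of the ER, Hspa5, Hsp90b1 and Hyou1 overlapped between the groups. Of its 8 genes, 4 were higher in every apCAFs library than in any nonapCAFs library. The same held for 17.1% of all tested genes and 25.5% of the abundant genes. Hspa5 encodes BiP, the main ER HSP70 chaperone, which also holds the sensors inactive. It read 131109, 137743 and 109717 in apCAFs 1, 2 and 3 and 124642, 121274 and 87522 in nonapCAFs 4, 5 and 6. The groups overlapped, and apCAFs 3 and nonapCAFs 6 were each the lowest of their group. The ratio was 1.14 with a 95% interval from 0.80 to 1.64 (log2 0.19, SE 0.20, limma adjusted p = 0.57), and with quantile normalization the log2 fold change of Hspa5 was -0.21. Hsp90b1, the ER HSP90 known as GRP94, showed the same order of libraries, with 109193 ± 14316 in apCAFs and 97389 ± 17120 in nonapCAFs. Hsp90b1 overlaps 1810014B01Rik on the opposite strand, and the strand setting of the counting is not given in the sources used here. Hyou1, a large HSP70 relative that exchanges nucleotide on BiP, had 23565 ± 3745 in apCAFs and 24984 ± 3988 in nonapCAFs.

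Among the J-domain partners of BiP, a pair stood apart from the rest. Dnajb9 (ERdj4), which helps BiP restrain IRE1, read 2336, 2290 and 4017 in apCAFs 1, 2 and 3 and 1491, 1357 and 1773 in nonapCAFs 4, 5 and 6. Every apCAFs library exceeded every nonapCAFs library, and apCAFs 3 was the highest (log2 0.86, SE 0.28, limma adjusted p = 0.184). Dnajc3 (p58IPK), a luminal co-chaperone that also restrains PERK, read 17559, 17871 and 18973 in apCAFs and 13506, 13919 and 10603 in nonapCAFs. Its groups did not overlap either (log2 0.53, SE 0.16, limma adjusted p = 0.171). By contrast Dnajb11 (ERdj3) differed by a log2 of 0.11, with overlap between the groups. Sdf2l1, a partner of ERdj3, differed by a log2 of only 0.15, though its groups did not overlap. Manf, a secreted BiP cofactor whose annotated span overlaps Rbm15b and Dcaf1, differed by a log2 of 0.20, also without overlap between the groups. Of the 35 genes, 20 lay higher and 4 lower in every apCAFs library than in any nonapCAFs library, against 17.1% and 15.4% of all tested genes and 25.5% and 25.9% of the abundant genes.

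Among lectin chaperones and disulfide isomerases none passed, and the ratios ran from 0.98 for Canx to 1.45 for P4hb. Calreticulin (Calr), the luminal lectin chaperone, read 80619, 78955 and 84589 in apCAFs 1, 2 and 3 and 64738, 62548 and 47717 in nonapCAFs 4, 5 and 6. The groups did not overlap, and the ratio was 1.41 with an interval from 1.04 to 1.90 (limma adjusted p = 0.211). Calnexin (Canx), its membrane-bound counterpart, had 50859 ± 10453 in apCAFs and 51801 ± 9791 in nonapCAFs. P4hb, which is protein disulfide isomerase and also the beta subunit of collagen prolyl 4-hydroxylase, read 99161, 98770 and 117733 in apCAFs and 78735, 76296 and 63110 in nonapCAFs. P4hb showed no overlap between the groups (log2 0.53, SE 0.16, limma adjusted p = 0.167). Pdia3 (ERp57), the isomerase that works with both lectin chaperones and in class I peptide loading, had 92521 ± 3042 in apCAFs and 75989 ± 10915 in nonapCAFs. Its ratio was 1.23, with an interval from 0.92 to 1.63. Pdia4, Pdia6, the isomerase-like Creld2 and the oxidase gene Ero1l, which reoxidises the isomerases, differed by a log2 of 0.03 to 0.27.

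All 3 collagen folding genes lay higher in every apCAFs library than in any nonapCAFs library, without passing in limma. So did 17.1% of all tested genes and 25.5% of the abundant genes, whether or not they passed. Serpinh1 encodes HSP47, the chaperone specific to procollagen. It read 176125, 170920 and 210893 in apCAFs 1, 2 and 3 and 130981, 126215 and 93518 in nonapCAFs 4, 5 and 6, with the extremes in apCAFs 3 and nonapCAFs 6. The ratio was 1.60 with an interval from 1.14 to 2.26 (log2 0.68, SE 0.20, limma adjusted p = 0.148). Fkbp10 (FKBP65), a prolyl isomerase whose loss causes brittle bones in people, had 22713 ± 3441 in apCAFs and 16790.3 ± 1286 in nonapCAFs. Ppib (cyclophilin B), a prolyl isomerase of the collagen 3-hydroxylation complex, had 17386 ± 822 in apCAFs and 14349 ± 995 in nonapCAFs. Fkbp10 overlaps Nt5c3b and Ppib overlaps Snx22, each on the opposite strand. All 3 genes were higher in apCAFs in the authors' deposited table, with DESeq2 adjusted p = 0.000965 for Serpinh1, 0.0153 for Fkbp10 and 0.0215 for Ppib. Of the genes listed there with an adjusted p, 20.6% were higher at a DESeq2 adjusted p of 0.05.

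**Figure D2:**
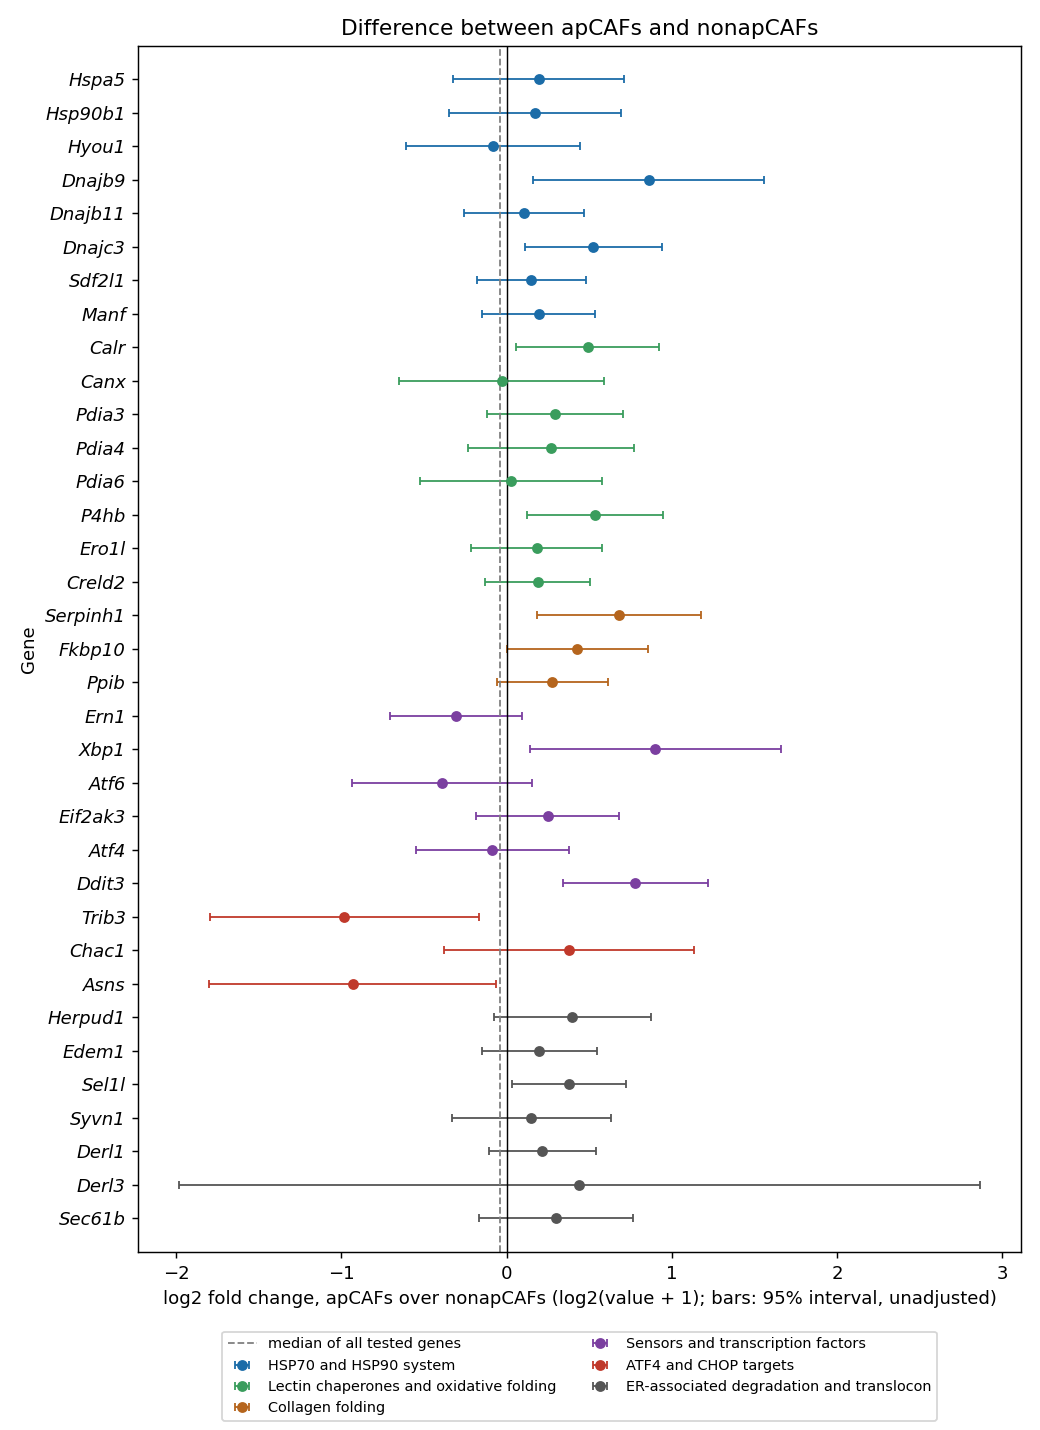
Log2 fold change of each gene, apCAFs over nonapCAFs, with bars for the unadjusted 95% interval and colours for the roles; the dashed line is the median of all tested genes. Intervals of Ddit3, Xbp1, Dnajb9 and Serpinh1 lie above 0 and those of Trib3 and Asns below 0, while 24 of 35 include 0.

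The sensors and their factors did not move as a group. Ern1 (IRE1-alpha) read 8094, 7607 and 7269 in apCAFs 1, 2 and 3 and 9364, 10884 and 8307 in nonapCAFs 4, 5 and 6, so every apCAFs library was below every nonapCAFs library (log2 -0.31, SE 0.16, limma adjusted p = 0.339). Atf6 had 6504 ± 1485 in apCAFs and 8373 ± 295 in nonapCAFs, also without overlap, and apCAFs 3 at 4803 lay well below the other libraries. Eif2ak3 (PERK) differed by a log2 of 0.25 and Atf4 by -0.09. Xbp1 ran the other way from Ern1, with 13452, 13787 and 25960 in apCAFs and 8762, 8440 and 10002 in nonapCAFs. The groups did not overlap for Xbp1, and apCAFs 3 lay a log2 of 0.93 above the mean of apCAFs 1 and 2, while these lay 0.66 above nonapCAFs 4 and 5. The fold change of Xbp1 over all libraries was the largest positive one of the 35 genes in limma (log2 0.90, SE 0.30, limma adjusted p = 0.197).

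Ddit3, which encodes the stress factor CHOP, came closest to passing in limma. It read 2522, 2831 and 3306 in apCAFs 1, 2 and 3 and 1867, 1667 and 1499 in nonapCAFs 4, 5 and 6, with no overlap. The ratio was 1.72 with an interval from 1.27 to 2.33 (log2 0.78, SE 0.17, limma adjusted p = 0.0803). Ddit3 passed when limma was run only on genes with a mean of 10 or more (adjusted p = 0.0359, with 10.2% of all genes passing) or 100 or more (adjusted p = 0.0188, with 15.4% passing). It also passed in limma with a pseudocount of 10 (adjusted p = 0.0367, with 6.93% passing) and with a variance trend (adjusted p = 0.0108, with 9.48% passing). Over all limma alternatives its adjusted p ran from 0.0108 to 0.35 and its log2 fold change from 0.60 to 0.87. In the authors' deposited table it had a DESeq2 adjusted p of 1.58e-05, the smallest of the 35 genes. The second Ddit3 row, a gene model on the same strand inside the first, read 161, 178 and 207 in apCAFs and 124, 137 and 130 in nonapCAFs (limma adjusted p = 0.189). Reads of these overlapping models cannot be told apart.

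Among 3 targets of ATF4 and CHOP, Trib3 and Asns had fold changes opposite in sign to that of Ddit3, and none passed in limma. Trib3, a pseudokinase that CHOP and ATF4 induce, read 652, 635 and 411 in apCAFs 1, 2 and 3 and 960, 862 and 1588 in nonapCAFs 4, 5 and 6. Its groups did not overlap, and the ratio was 0.51 with an interval from 0.29 to 0.89 (log2 -0.98, SE 0.32, limma adjusted p = 0.192). Asns, the asparagine synthetase gene that ATF4 activates, read 4757, 4834 and 2224 in apCAFs and 7087, 6694 and 7487 in nonapCAFs, again without overlap (log2 -0.93, SE 0.34, limma adjusted p = 0.233). Chac1, a glutathione-degrading enzyme gene downstream of ATF4, read 288, 313 and 426 in apCAFs and 240, 197 and 370 in nonapCAFs, and the groups overlapped (log2 0.38). Trib3 and Asns were the only members lower in apCAFs in the authors' deposited table, with DESeq2 adjusted p = 0.00678 and 0.0169.

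None of the 7 degradation and translocon genes passed in limma, and their log2 fold changes lay between 0.15 and 0.44, but Sec61b and Syvn1 turned below 0 under a rescaling each and Syvn1 and Derl3 without apCAFs 3. Sel1l, the adaptor of the HRD1 ubiquitin ligase, read 11237, 10643 and 12007 in apCAFs 1, 2 and 3 and 8846, 9194 and 8025 in nonapCAFs 4, 5 and 6. There was no overlap for Sel1l (log2 0.38, SE 0.14, limma adjusted p = 0.224). Syvn1, the HRD1 ligase itself, had 8676 ± 1796 in apCAFs and 7714 ± 377 in nonapCAFs, with overlap. Herpud1, an HRD1 partner that ER stress induces, had 4713 ± 892 in apCAFs and 3543 ± 294 in nonapCAFs. The retrotranslocation gene Derl1 and the mannosidase-like Edem1, which marks misfolded glycoproteins, differed by a log2 of 0.22 and 0.20, and the translocon subunit gene Sec61b by 0.30. Derl3, a relative of Derl1 typical of strongly secretory cells, was near the lower limit of the data. It read 29, 13 and 166 in apCAFs and 34, 19 and 39 in nonapCAFs, and only apCAFs 3 stood out; without that library its log2 fold change was -0.57.

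The 9 genes with an ERSE match had log2 fold changes from -0.03 to 0.53 with a median of 0.19, and 2 of them, Dnajc3 and Calr, were at an unadjusted p under 0.05. The other 21 genes with a promoter window ranged from -0.98 to 0.90 with a median of 0.28, and 8 were at an unadjusted p under 0.05. Among all tested genes 19.3% were under that p. Xbp1, Ddit3, Serpinh1, Dnajb9, Trib3 and Asns had no ERSE match in these windows. Derl3, a gene with a match, lay inside the range of the 9 genes at 0.44 in limma. Its log2 fold change was -0.57 to 1.22 without single libraries and 1.13 in the authors' deposited table. The difference between the sets of genes was not tested.

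As in the abundant genes at large, most differences were larger in the libraries numbered 3 and 6 than in the others. apCAFs 3 minus nonapCAFs 6 exceeded in size the difference between the means of apCAFs 1 and 2 and of nonapCAFs 4 and 5 for 29 of 35 genes, as it did for 80.9% of the abundant genes, where a difference of single libraries also carries more noise than a difference of means. The median log2 difference of the 35 genes was 0.40 in libraries 3 and 6 and 0.15 in the other 4. For Trib3 the difference was -1.95 in libraries 3 and 6 and -0.50 in the other 4, for Asns it was -1.75 and -0.52, for Xbp1 1.38 and 0.66 and for Serpinh1 1.17 and 0.43 in the same order. The sign was the same in both sets for 32 of 35 genes. Both apCAFs 3 and nonapCAFs 6 were left out in an alternative chosen after the data were seen. None of the 35 genes then passed in limma (smallest adjusted p = 0.0533, Xbp1), while 7.11% of all tested genes did. In that fit 10 of the 35 were at an unadjusted p under 0.05, a count for which no share of all genes was taken. None of the 35 passed in limma with a term for these libraries, where 6.83% of all genes did, or without apCAFs 3 alone, where 4.98% did (smallest adjusted p = 0.0566 and 0.078).

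**Figure D3:**
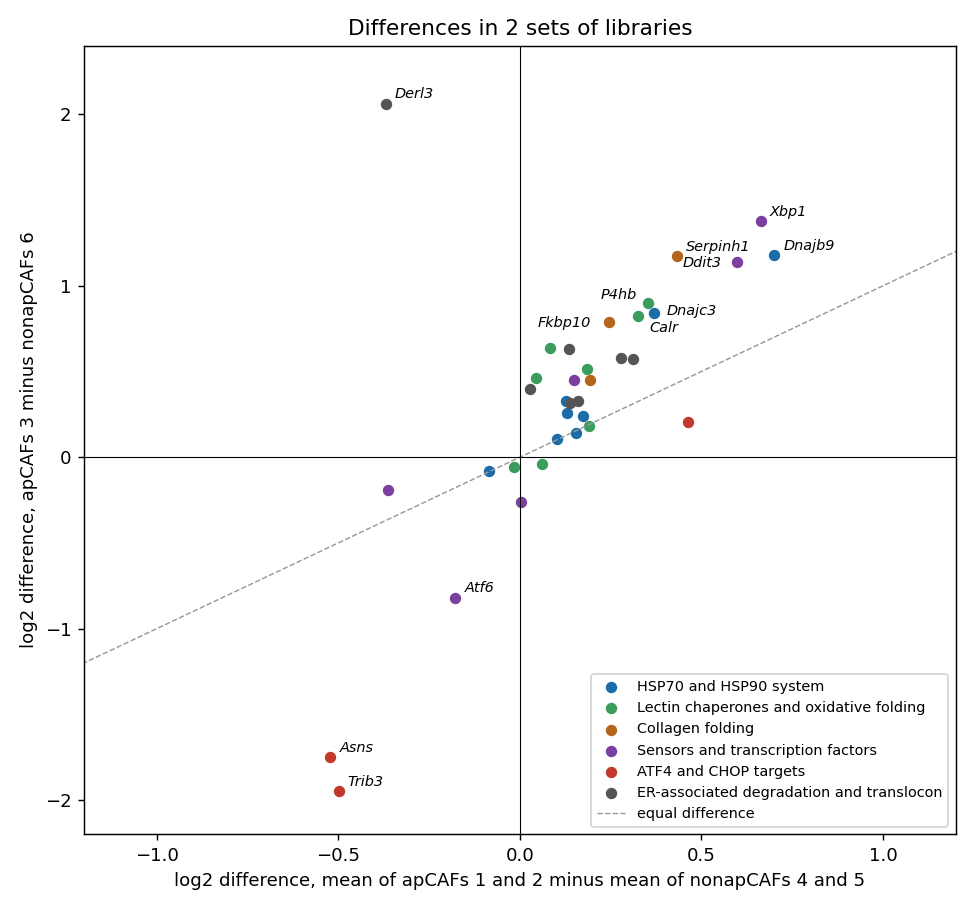
Log2 difference of each gene between apCAFs 3 and nonapCAFs 6 (vertical) against that between the means of apCAFs 1 and 2 and of nonapCAFs 4 and 5 (horizontal), coloured by role; the dashed line marks equal differences. Asns and Trib3 lie furthest below the line at negative differences and Xbp1, Dnajb9, Ddit3 and Serpinh1 above it at positive ones, while Derl3 differs in sign.

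Some markers of other cell types differed between the groups in limma, all of them higher in apCAFs. The counts that passed stand beside 3.91% of all tested genes that passed as higher. Of 9 mesothelial genes 7 passed, and their summed value was 40331 to 51979 in apCAFs and 5277 to 6001 in nonapCAFs. Of 12 alveolar type II genes Chil1 passed, and apCAFs 1, 2 and 3 had sums of 116634, 97788 and 12359, while those of nonapCAFs were 9331 to 11323. Of 10 epithelial genes Cldn3 passed, and 5 were at an unadjusted p under 0.05, all higher in apCAFs, beside 13.1% of all tested genes. Sums of the 10 genes, 7966 to 15479 in apCAFs and 7270 to 10611 in nonapCAFs, were mostly Krt8 and Krt18. In log2 fold change 7 of the 10 lay above 0, Krt8 only at 0.07. The other 3 lay below, Krt18 at -0.52, Elf3 at -0.37 and Cldn7 at -0.05. Epcam, whose protein the gate excluded, read 181, 209 and 21 in apCAFs 1, 2 and 3 and 13, 3 and 5 in nonapCAFs 4, 5 and 6. Cdh1 read 786, 602 and 111 in apCAFs and 33, 36 and 2 in nonapCAFs, and Krt7 read 2375, 2058 and 889 in apCAFs and 155, 197 and 27 in nonapCAFs. Of 12 leukocyte and macrophage genes Cd14 passed, with sums of 4493 to 8909 in apCAFs and 2350 to 2641 in nonapCAFs. These sums were mostly Cd14 and Csf1r. Of the 12 genes 11 had fold changes above 0. Itgax lay below without overlap, at 249 ± 65 in apCAFs and 545 ± 17 in nonapCAFs. Ptprc, whose protein CD45 the gate excluded, read 24, 22 and 65 in apCAFs and 2, 29 and 34 in nonapCAFs. Of 7 endothelial genes Kdr passed, with sums of 2256 to 3682 in apCAFs and 354 to 458 in nonapCAFs. Kdr made up most of the apCAFs sums, at 1843, 1914 and 3066 in apCAFs and 65, 77 and 36 in nonapCAFs. Every other endothelial gene overlapped between the groups. Pecam1, whose protein CD31 the gate excluded, read 81, 20 and 129 in apCAFs and 58, 50 and 85 in nonapCAFs.

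Plasma cells express many of the ER genes strongly. None of 13 B and plasma cell genes passed in limma. At an unadjusted p under 0.05, 4 were higher in apCAFs and 0 lower, beside 13.1% and 6.19% of all tested genes. These were Jchain, Cd79b, Ms4a1 and Prdm1. Jchain read 11, 61 and 36 in apCAFs and 2, 3 and 10 in nonapCAFs, and Cd79b and Ms4a1 read 20 or less in every library. Prdm1 had 250 ± 33 in apCAFs and 116 ± 39 in nonapCAFs. Of the 13 genes 9 had fold changes above 0 and 4 below. The sums of the 13 genes were 24005 to 25074 in apCAFs and 20635 to 23238 in nonapCAFs, mostly from Sdc1. The plasma cell gene Tnfrsf17 read 4 or less in every library, and Igkc read 10, 1076 and 731 in apCAFs 1, 2 and 3 and 4, 5 and 94 in nonapCAFs 4, 5 and 6. None of 14 handling and heat shock genes passed, with 8 higher in apCAFs at an unadjusted p under 0.05, beside 13.1% of all tested genes. The sums of the 14 were 1014279 to 1576035 in apCAFs and 638463 to 674725 in nonapCAFs. None of 6 cycling genes passed or had an unadjusted p under 0.05, and their sums were 30313 to 61900 in apCAFs and 59468 to 72099 in nonapCAFs. Of 8 fibroblast genes Col1a1, Col1a2, Pdpn and Thy1 passed as higher, beside 3.91% of all tested genes. All 8 were detected in every library, and 7 had fold changes above 0. Lum lay below without overlap, at 10139 ± 1783 in apCAFs and 18786 ± 2888 in nonapCAFs (log2 -0.89, limma adjusted p = 0.0952). The sums of the 8 genes, mostly from Col1a1, Col1a2 and Col3a1, were 2803387 to 4232696 in apCAFs and 1194730 to 1430171 in nonapCAFs. Marker genes named here were chosen after their values were seen. The part of these genes in the results above was not tested.

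Outside the peptide loading list, other genes of the pathway gave few calls in limma, where 4.4% of all tested genes passed. Of 26 other folding enzymes and co-chaperones 1 passed, Rcn3, a calcium-binding ER protein of the secretory pathway, at 27863 ± 11775 in apCAFs and 7691 ± 345 in nonapCAFs (log2 1.78, SE 0.31, limma adjusted p = 0.0442). The abundant Calu and Txndc5 of that list differed by a log2 of -0.12 and 0.25, and the list's median was 0.12. Of 21 collagen folding and export partners 1 passed, and the list's median was 0.53. At an unadjusted p under 0.05, 12 of the 21 had positive and 1 a negative fold change. Of all tested genes 13.1% were higher and 6.19% lower at that p, and of the abundant genes 17.6% and 7.4%. By the authors' DESeq2 adjusted p of 0.05, 13 of the 21 were higher and 1 lower. Of all genes listed with such an adjusted p, 20.6% were higher and 9.77% lower. The gene that passed was Creb3l1, an ER-anchored transcription factor that activates collagen genes, which read 8458, 8308 and 19015 in apCAFs 1, 2 and 3 and 2296, 2487 and 2341 in nonapCAFs 4, 5 and 6 (log2 2.21, SE 0.36, limma adjusted p = 0.0383). In the same list Bmp1, which cleaves procollagen, differed by a log2 of 0.31 and P4ha1, a prolyl hydroxylase subunit, by 0.40. The calls of Rcn3 and Creb3l1 held without apCAFs 3 (limma adjusted p = 0.012 and 0.0084) and were lost without any other single library, with limma adjusted p of up to 0.147 for Rcn3 and up to 0.131 for Creb3l1. Both were also lost with the experiment as a block, with limma adjusted p of 0.116 to 0.169 for Rcn3 and 0.104 to 0.157 for Creb3l1 over the 6 possible pairings. Of 9 class I and class II peptide loading partners 4 passed as higher, but the sort on MHCII bears on this list. Cd74 was 82.6-fold, H2-DMa 3.50-fold and H2-DMb1 10.2-fold higher (limma adjusted p = 0.0069, 0.00981 and 0.0173). Tap1, chosen after its values were seen, was the fourth, at 24362 ± 3855 in apCAFs and 9016 ± 797 in nonapCAFs (limma adjusted p = 0.0212). The call of H2-DMb1 was lost without apCAFs 1, apCAFs 2 or nonapCAFs 4 (limma adjusted p of up to 0.064), and that of Tap1 without any library but apCAFs 3 (limma adjusted p of up to 0.0801). With the experiment as a block all 4 calls were lost under each of the 6 pairings, where no gene in the whole table passed. The limma adjusted p was then 0.0559 to 0.136 for Cd74, 0.0563 to 0.136 for H2-DMa, 0.0718 to 0.136 for H2-DMb1 and 0.0935 to 0.138 for Tap1.

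In the remaining lists none passed in limma; counts at an unadjusted p under 0.05 stand beside 19.3% of all tested genes. The glycoprotein folding cycle had a median log2 fold change of -0.24 over 9 genes, with Ganab, a glucosidase subunit, at -0.24 and Uggt1, the glycoprotein folding sensor, at -0.29, and 1 gene in each direction was under that p. Translocon, signal peptidase and oligosaccharyltransferase genes had a median of 0.25 over 23 genes, and under that p there were 4 with positive and 1 with a negative value; Rpn2 was at -0.05 and Ssr3 at 0.45. Other degradation genes had a median of -0.0013 over 21, with Bag6 at -0.20 and Os9 at 0.37, and 5 were under that p, all positive. Regulators of the ATF6 and XBP1 branches had a median of 0.04 over 18, with Tmbim6 at 0.33 and Gtf2i at -0.21, and 4 positive and 1 negative were under that p. Genes of ER turnover and calcium had a median of 0.27 over 11, with the calcium pump gene Atp2a2 at 0.44 and the channel gene Itpr3 at -0.84, and 3 were under that p, all positive.

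The lists around eIF2 and ATF4 ran in both directions. At an unadjusted p under 0.05, 13.1% of all tested genes were higher and 6.19% lower in apCAFs. In the integrated stress response list, 4 of 19 genes had positive and 1 a negative fold change at that p. The median log2 fold change of that list was -0.10. Its most abundant genes encode transcription factors. Cebpb was at 1.05 (limma adjusted p = 0.112), and Atf3 had 23522 ± 2037 in apCAFs and 12442 ± 4707 in nonapCAFs (limma adjusted p = 0.21). Among 30 ATF4 targets of amino acid supply, 2 with positive and 6 with negative fold changes were at an unadjusted p under 0.05, and 19 lay below 0 with a median of -0.24. The tRNA synthetase genes Eprs and Aars of that list were at -0.22 and -0.26. Of these 30, 4 were higher and 9 lower in the authors' deposited table at a DESeq2 adjusted p of 0.05. Of all genes that table lists with an adjusted p, 20.6% were higher and 9.77% lower.

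**Figure D4:**
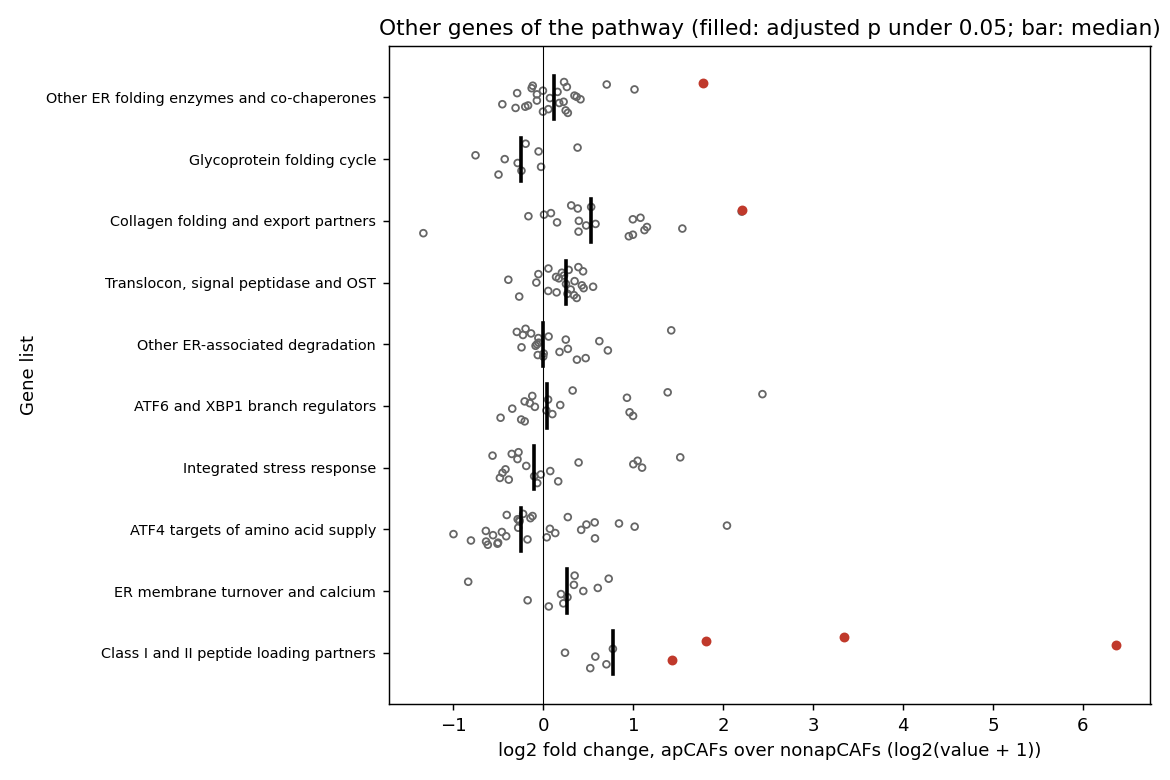
Log2 fold change, apCAFs over nonapCAFs, of every tested gene in the 10 other lists of the pathway; filled points passed in limma at an adjusted p of 0.05, and black bars are list medians. Medians run from -0.24 for the glycoprotein folding cycle and ATF4 amino acid lists to 0.77 for the peptide loading partners.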

How the data were processed

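RNA-seq was measured in 3 libraries of apCAFs and 3 of nonapCAFs, grouped by their titles. Tools named in the submitters' processing notes, without roles, are Bowtie2, DESeq2 and Trim Galore, with the build mm10. Which counter, annotation and strand setting were used is not stated in these sources. Per the file headers, the authors normalized the gene counts between libraries before they deposited them, and the deposited whole numbers are used as a score. No counting interval can be given. Their comparison table gives, per the file headers, DESeq2's p-value with its adjusted form, the fold as a ratio and as log2, and each gene's GC percent (not used).

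A linear model with only the group as a term was run in limma 3.58.1 (R 4.3.3) on log2(value + 1). It covered 36443 genes, leaving out 18855 that were at 0 in every library. Calls use a two-sided p of 0.05 after Benjamini-Hochberg adjustment across the whole table; intervals are unadjusted 95% intervals. The planned count test was replaced because the values are not raw counts. The fit was tested on simulated data. Exact permutation of 3 against 3 libraries cannot go below p = 0.1. Promoter letters came from RefSeq (GRCm38.p6), exon lengths from GENCODE M21.

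The 35 genes and all gene lists were chosen with earlier results of these data known. All members are named; of each other list, up to 3 called genes with the smallest p, and, where fewer than 2 passed, the 2 most abundant. Where a symbol had several rows, the row with the highest mean was used. Alternatives covered the pseudocount, low-value filters, a variance trend, scaling, left-out libraries, averaged close pairs, an experiment term and the authors' p-values.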

Additional observations from a re-analysis of the deposited data

How the results depend on the processing

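Over 24 alternatives, the count of the 35 genes called in limma was 0 in the original fit, with a pseudocount of 0.5, under all 3 rescalings, without any single library (0 to 0) and with apCAFs 1 and 2 and nonapCAFs 4 and 5 averaged. It was 1 with a pseudocount of 10 and 1 with genes of mean value at least 10 (Ddit3), 2 with a variance trend (Ddit3 and Dnajc3), 4 with genes of mean value at least 100 (also P4hb and Serpinh1), and 12 in the authors' deposited table. With a replicate block under each of the 6 possible pairings, 0 of the 35 and 0 of all genes passed in limma, and 3 or 4 of the 35 were at an unadjusted p under 0.05, against 11 without the block; that fit has fewer degrees of freedom. That count was 7 with quantile-normalized values, 1 with close pairs averaged, 17 in the authors' deposited table and 4 to 8 without single libraries. The share of all genes under that p was taken only for the original fit, where it was 19.3%. Leaving out apCAFs 2 gave 7, nonapCAFs 4 gave 6, nonapCAFs 5 gave 5 and nonapCAFs 6 gave 4, while apCAFs 1 or apCAFs 3 left out gave 8 each. Calls over all genes, 1602 in the original fit, were 2527 with a pseudocount of 10, 2465 and 2748 with mean values of at least 10 and 100, 3453 with a variance trend, 2490 with a term for apCAFs 3 and nonapCAFs 6, 2489 without both, 0 with close pairs averaged, 5842 in the authors' deposited table and 310 to 1791 without single libraries: apCAFs 1 left out gave 411, apCAFs 2 310, apCAFs 3 1791, nonapCAFs 4 464, nonapCAFs 5 499 and nonapCAFs 6 810. The share of calls that were higher, 89.0% in the original fit, was 78.9% with quantile-normalized values, 67.8% in the authors' deposited table, 58.4%, 60.3% and 76.5% when nonapCAFs 4, 5 or 6 was left out, and 81.9% to 91.4% in the other alternatives that gave calls. The cause of these shifts was not tested, except that averaging and blocks leave fewer degrees of freedom.

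Dividing by library totals, quantile normalization and median centring moved the median log2 fold change of all genes to -0.18, -0.19 and -0.14, and the median of the 35 genes lay 0.25, 0.31 and 0.26 above it, against 0.26 in the original fit. Signs turned as follows, in no gene called in the original fit. With quantile normalization Hspa5 was -0.21, Hsp90b1 -0.14, Pdia6 -0.14 and Sec61b -0.0425. With library totals Pdia6 was -0.12, Dnajb11 -0.0473, Sdf2l1 -0.0017 and Syvn1 -0.0011, and with median centring Pdia6 was -0.0676. Without apCAFs 3 and nonapCAFs 6, Atf4 was 0.0032 and Derl3 -0.37. Without single libraries, Hyou1 ranged from -0.22 to 0.0536, Canx from -0.20 to 0.15, Pdia6 from -0.10 to 0.19, Atf4 from -0.18 to 0.0598, Syvn1 from -0.0114 to 0.26 and Derl3 from -0.57 to 1.22; of other named genes Calu ranged from -0.22 to 0.0073 and Rpn2 from -0.15 to 0.0705. With a replicate block or close pairs averaged, the calls of Rcn3, Creb3l1, Cd74, H2-DMa, H2-DMb1 and Tap1 were lost too, and Rcn3 was lost under each rescaling (limma adjusted p = 0.054, 0.0539 and 0.0526) and with a pseudocount of 0.5 (0.0507). Unknown depth limits the low genes Derl3, Chac1 and Sec61b most.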
